A study of Homo sapiens with 18 samples.

Results

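The 35 genes described here carry out or control the synthesis of cholesterol and fatty acids. They were chosen by name from the 17017 gene symbols of the deposited table, and all 35 were present and passed the filter on low counts in every fit. They comprise 7 genes of the mevalonate route, 11 enzymes between farnesyl diphosphate and cholesterol, 5 genes that control sterol-regulated transcription, 1 sterol carrier, 9 genes of fatty acid synthesis and desaturation, and 2 targets of the liver X receptors (LXR). The cells were MDA-MB-231, an established human line of triple-negative breast carcinoma, transduced with lentivirus encoding a short hairpin RNA in the vector pLKO.1. Fibrillarin (FBL), the methyltransferase that places 2'-O-methyl groups on ribosomal RNA, was the target. SC, read here as the scramble control, had no fibrillarin hairpin, and SH2 and SH3 are the 2 treatments with one. The labels do not say which of them is the first or the second knockdown of the protocols. Cells of all treatments were transduced, selected with puromycin, returned to fresh medium with serum and insulin, and exposed briefly to cycloheximide, which halts elongating ribosomes, before lysis. Neither the use of clones nor separate cultures behind the replicates is stated, so p-values measure only the spread between these samples, which may be technical. Each treatment had 3 libraries of input cytoplasmic RNA (IN, called RNA below) and 3 of ribosome-protected footprints (RPF), 18 libraries in all.

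Cholesterol is built from acetyl-CoA through mevalonate, farnesyl diphosphate, squalene and lanosterol. Transcription of the enzymes is driven by the sterol regulatory element-binding proteins, SREBP, which are made as membrane precursors. When sterols are scarce, SCAP escorts the precursors from the endoplasmic reticulum to the Golgi for cleavage. When sterols are plentiful, the INSIG proteins retain SCAP. The LXR nuclear receptors are activated by oxysterols and raise genes of cholesterol export, so SREBP and LXR targets usually respond to sterols in opposite directions.

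Total counts ranged from 23469830 to 27629488 in the RNA libraries and from 1662705 to 6098648 in the footprint libraries, so footprint values rest on fewer reads. Levels are given as counts per 1000000 (CPM) after TMM scaling within each kind of library, and the spread between replicates, as edgeR's common coefficient of biological variation, was 11.6% for RNA and 15.1% for footprints. FBL RNA stood at 395, 349 and 421 CPM in SC replicates 1 to 3, at 1.26, 4.52 and 11.2 CPM in SH2 and at 3.36, 4.15 and 2.95 CPM in SH3. FBL footprints were 280, 269 and 296 CPM in SC, 5.18, 4.43 and 30.1 CPM in SH2, and 4.10, 5.48 and 8.06 CPM in SH3. Both FBL readouts were far below SC in all hairpin libraries, with SH2 replicate 3 the highest of them. RNA of VIM, CD44, KRT18 and AXL was abundant and that of ESR1, PGR and CDH1 was at most 0.449 CPM in any library, as is known of this line. Among the SC footprint libraries, replicate 2 was the highest for 22 of the 35 genes and replicate 1 the lowest for 22. Their summed level was 3857 CPM in SC replicate 1, 4905 in replicate 2 and 4502 in replicate 3. Since the libraries are bulk lysates, a change in the share of cells that express a gene and a change in the level per cell cannot be told apart.

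Promoters of 4 genes are shown because their genes differ in how they moved and hold some of the motifs searched. That of INSIG1 held neither the SREBP motif nor its core. RefSeq promoters (GRCh38.p14, 250 bases before to 50 after the start) were matched for 31 of the 35 genes, which gave 42 promoters, and ACAT2, FDFT1, SQLE and FASN had no entry. The searched letters were the SREBP motif TCACNCCAC, its shorter core TCACNCCA, which lies inside it, the CCAAT box and the E-box CACGTG, on both strands. Capitals mark their matches, CCAAT boxes also as ATTGG on the other strand. The windows are upstream of the start and are written 5′ to 3′ on the plus strand. SREBF2 is at chr22:41832955-41833014, MSMO1 at chr4:165327479-165327643, MVK at chr12:109573579-109573753 and INSIG1 at chr7:155297698-155297837.
SREBF2: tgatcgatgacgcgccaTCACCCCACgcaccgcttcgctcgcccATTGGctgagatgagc
MSMO1: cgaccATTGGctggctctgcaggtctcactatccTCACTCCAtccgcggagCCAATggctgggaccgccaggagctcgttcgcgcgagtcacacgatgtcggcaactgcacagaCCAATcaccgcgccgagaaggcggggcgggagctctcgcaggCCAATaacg
MVK: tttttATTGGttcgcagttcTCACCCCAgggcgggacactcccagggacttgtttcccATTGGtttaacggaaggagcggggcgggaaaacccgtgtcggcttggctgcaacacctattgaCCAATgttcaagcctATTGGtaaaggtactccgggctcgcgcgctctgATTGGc
INSIG1: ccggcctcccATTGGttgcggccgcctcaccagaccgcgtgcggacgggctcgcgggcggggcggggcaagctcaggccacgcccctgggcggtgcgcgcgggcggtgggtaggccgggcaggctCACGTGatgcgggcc
The longer SREBP motif was found in 1 of the 42 promoters, that of SREBF2, and in 1.13% of all 35116 promoters in the table. Its core was in 3 of the 42, those of MSMO1, MVK and SREBF2, and in 3.95% of all promoters. A CCAAT box was in 26 of the 42 (61.9%), belonging to 22 genes, and in 34.6% of all promoters. The E-box was in 6 of the 42, belonging to ABCA1, INSIG1, LSS, SC5D and SCAP, and in 7.26% of all promoters. A match describes letters in the window only.

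Most of the 35 genes had less RNA under either hairpin than in SC. "Called" means an adjusted p under 0.05 in edgeR's quasi-likelihood test, over all genes tested. In SH2, 20 of the 35 fell (57.1%, against a background of 30.4% of 12710 genes called lower) and 8 rose (22.9%, against 31.1%). In SH3, 23 fell (65.7%, against 25.2%) and 3 rose (8.57%, against 27.8%). The median log2 change of RNA was -0.41 in SH2 and -0.59 in SH3, beside 0.012 and 0.034 over all genes tested. Footprints gave 15 lower (42.9%, against 23.2% of 10345 genes) and 8 higher (22.9%, against 21.0%) in SH2, and 20 lower (57.1%, against 19.0%) and 2 higher (5.71%, against 16.9%) in SH3. Their median changes were -0.41 and -0.72, beside -0.0042 and -0.014 over all genes. The SC libraries serve as reference for each hairpin, so the changes in SH2 and SH3 are not independent. In the authors' deposited table, at an adjusted p under 0.05, the 35 genes gave 20 lower and 8 higher for SH2 RNA, 23 and 3 for SH3 RNA, 15 and 8 for SH2 footprints, and 19 and 2 for SH3 footprints.

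**Figure D1:**
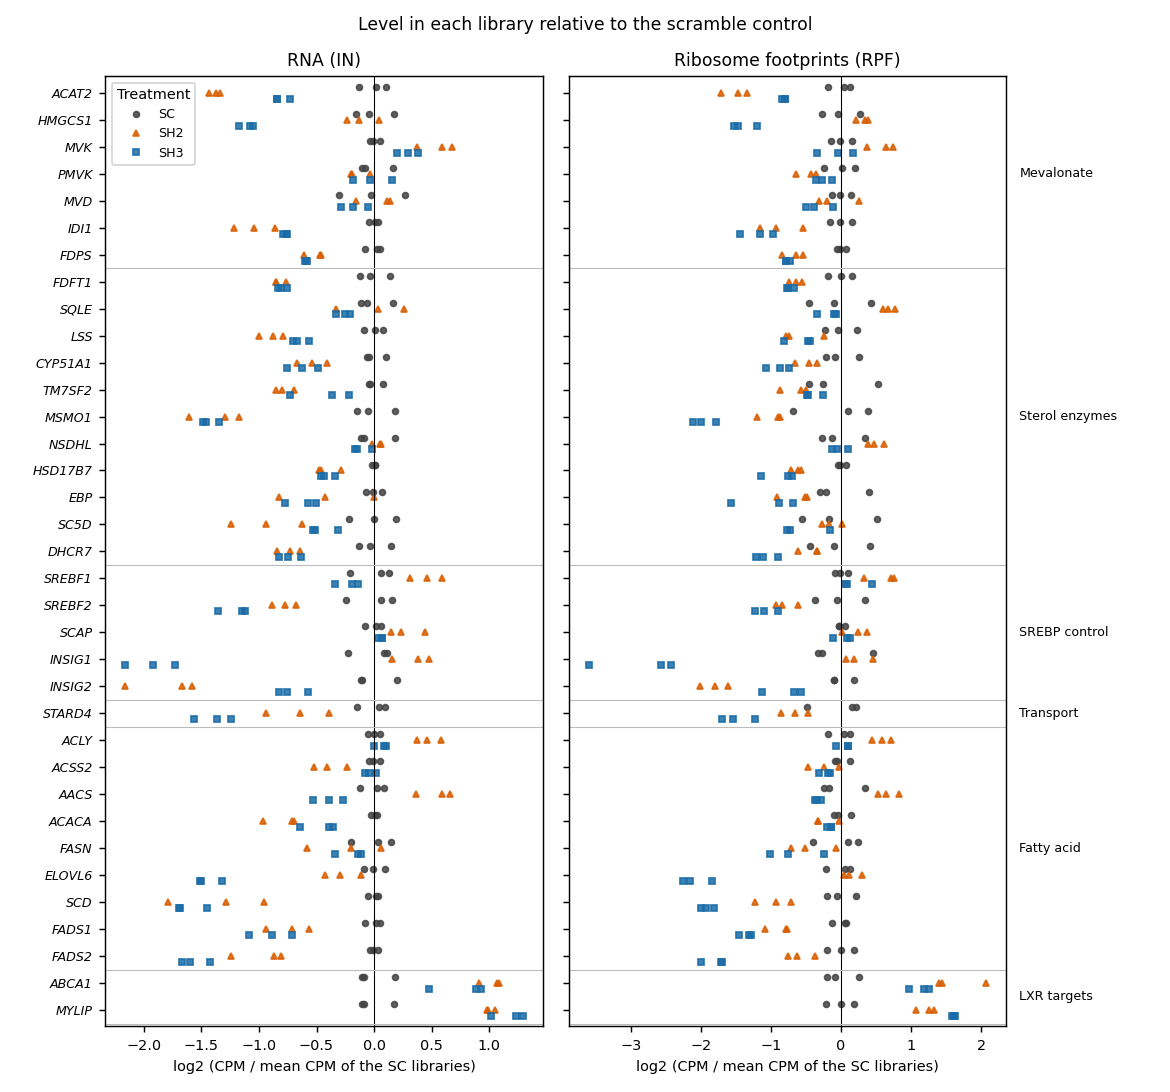
RNA (left) and footprint (right) level of each of the 35 genes in every library, as log2 of the CPM over the mean CPM of the 3 SC libraries; circles are SC, triangles SH2 and squares SH3. Most squares lie left of 0, ABCA1 and MYLIP lie right of it in both hairpins, and INSIG1, AACS and HMGCS1 show triangles and squares far apart.

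In the mevalonate route, RNA of ACAT2, IDI1 and FDPS fell in SH2 and that of ACAT2, HMGCS1, IDI1 and FDPS in SH3. MVK rose in both hairpins, and PMVK and MVD passed the test in neither. ACAT2, which condenses acetyl-CoA into acetoacetyl-CoA, had RNA levels of 96.1, 107 and 113 CPM in SC, 39.1, 40.6 and 41.8 CPM in SH2, and 58.9, 63.4 and 58.6 CPM in SH3. All 3 groups were apart, with SH2 lowest, and the log2 change was -1.38 (SE 0.09, adjusted p = 6.61e-08) in SH2 and -0.81 (SE 0.09, adjusted p = 1.03e-05) in SH3. HMGCS1, the synthase of the next step, had 64.4, 51.2 and 55.3 CPM in SC, 52.1, 58.9 and 48.3 CPM in SH2, and 27.5, 25.2 and 27.0 CPM in SH3. SH2 overlapped SC (log2 change -0.10, SE 0.11, adjusted p = 0.435), while all SH3 libraries were below both other groups (-1.10, SE 0.11, adjusted p = 4.13e-06). IDI1, the isomerase that makes dimethylallyl diphosphate, was at 69.9, 66.0 and 68.4 CPM in SC, 33.0, 37.6 and 29.3 CPM in SH2, and 40.0, 39.3 and 40.2 CPM in SH3, changes of -1.03 and -0.77 (SE 0.10 each). FDPS, farnesyl diphosphate synthase, changed by -0.51 in SH2 and -0.59 in SH3 (SE 0.09 each). MVK, mevalonate kinase, went the other way, with 30.0, 30.5 and 31.8 CPM in SC, 46.2, 39.8 and 49.3 CPM in SH2, and 35.4, 37.7 and 40.1 CPM in SH3. No hairpin library overlapped SC for MVK, and the changes were 0.55 (SE 0.10, adjusted p = 0.000400) and 0.29 (SE 0.10, adjusted p = 0.0289). The SH3 call of MVK was lost when any 1 of the SC or SH3 replicates was left out, with log2 changes of 0.22 to 0.32 and adjusted p of 0.0588 to 0.184. PMVK and MVD, the kinase and decarboxylase that follow MVK, had log2 changes between -0.17 and 0.04.

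Footprints of the mevalonate genes fell for ACAT2, IDI1 and FDPS in both hairpins, for PMVK in SH2 and for HMGCS1 in SH3, and rose for MVK in SH2. HMGCS1 footprints were 58.0, 84.3 and 67.6 CPM in SC, 88.5, 90.9 and 81.3 CPM in SH2, and 25.2, 24.3 and 30.5 CPM in SH3. SH2 reached above SC but overlapped it (0.33, SE 0.16, adjusted p = 0.101), and SH3 was below both (-1.37, SE 0.17, adjusted p = 3.57e-05). Without SC replicate 2, the highest of the SC values, the SH2 change of HMGCS1 passed at 0.47 (adjusted p = 0.0204). The log2 footprint changes were -1.50 and -0.82 for ACAT2, -0.86 and -1.18 for IDI1, and -0.67 and -0.77 for FDPS, in SH2 and SH3 respectively. MVK gained 0.60 (SE 0.18, adjusted p = 0.0124) in SH2, lost as a call without SH2 replicate 2 (0.52, adjusted p = 0.0550). The fall of PMVK in SH2 (-0.49, adjusted p = 0.0217) was lost without SC replicate 1 (-0.38), SC replicate 3 (-0.48) or SH2 replicate 2 (-0.40). It was also lost with the footprint libraries thinned to the smallest total (-0.47, adjusted p = 0.0627).

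Between farnesyl diphosphate and cholesterol, RNA of 8 of the 11 enzymes fell in SH2 and of 9 in SH3, and none rose. Over all genes tested, 30.4% fell and 31.1% rose in SH2 RNA, and 25.2% fell and 27.8% rose in SH3 RNA. FDFT1, LSS, CYP51A1, TM7SF2, MSMO1, HSD17B7, SC5D and DHCR7 fell in SH2, and these and EBP in SH3, while SQLE and NSDHL passed in neither. MSMO1, a methylsterol oxidase, had the largest log2 changes of the 11 in RNA, at -1.35 (SE 0.13, adjusted p = 9.07e-07) in SH2 and -1.43 (SE 0.13, adjusted p = 1.27e-06) in SH3. Its RNA was 70.2, 56.0 and 60.0 CPM in SC, 27.5, 25.3 and 20.4 CPM in SH2, and 24.3, 22.2 and 22.5 CPM in SH3, so the hairpins overlapped each other and lay well below SC. LSS, which cyclises squalene epoxide to lanosterol, had 61.5, 54.8 and 58.4 CPM in SC, 29.1, 31.7 and 33.7 CPM in SH2, and 39.2, 35.8 and 36.6 CPM in SH3 (changes -0.89 and -0.65). TM7SF2, a sterol reductase, had 21.6, 20.0 and 19.9 CPM in SC, 12.7, 11.8 and 11.3 CPM in SH2, and 17.6, 15.9 and 12.3 CPM in SH3 (changes -0.78 and -0.42). SC5D, a sterol desaturase, had 34.1, 29.8 and 25.7 CPM in SC, 15.6, 19.3 and 12.6 CPM in SH2, and 24.1, 20.7 and 20.9 CPM in SH3 (changes -0.91 and -0.45). For LSS and SC5D both hairpins lay below SC with SH2 lowest, and for TM7SF2 both lay below SC and overlapped each other. FDFT1, squalene synthase, changed by -0.82 and -0.80, CYP51A1, the lanosterol demethylase, by -0.54 and -0.62, HSD17B7, a ketosteroid reductase, by -0.41 and -0.41, and DHCR7, the last reductase of the route, by -0.74 and -0.73. SQLE, squalene epoxidase, stood at 0.01 and -0.26, and NSDHL, a sterol dehydrogenase, at 0.03 and -0.11. EBP, the sterol isomerase, changed by -0.61 in SH3 (adjusted p = 0.00849) and stood at -0.38 in SH2 (adjusted p = 0.0679), where SH2 replicate 1 overlapped SC and without it the change passed (-0.61, adjusted p = 0.00441), as it did with the replicate number as a block (-0.40, adjusted p = 0.0206). The SH3 call of TM7SF2 was lost without SH3 replicate 3 (-0.32), and that of SC5D without SC replicate 1 (-0.36), SH3 replicate 2 (-0.44) or SH3 replicate 3 (-0.45).

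In footprints of SH2, 5 of these 11 enzymes fell (FDFT1, LSS, CYP51A1, MSMO1 and HSD17B7) and 2 rose (SQLE and NSDHL). In SH3, 7 fell (FDFT1, LSS, CYP51A1, MSMO1, HSD17B7, EBP and DHCR7) and none rose. Over all genes tested, 23.2% fell and 21.0% rose in SH2 footprints, and 19.0% fell and 16.9% rose in SH3 footprints. MSMO1 footprints were 121, 253 and 207 CPM in SC, 84.4, 103 and 106 CPM in SH2, and 56.2, 44.5 and 48.4 CPM in SH3, with each group apart and SC widely spread. The log2 changes of MSMO1 were -0.97 (SE 0.21) in SH2 and -1.96 (SE 0.22) in SH3. SQLE footprints were 12.3, 22.7 and 15.8 CPM in SC, 28.9, 27.0 and 25.6 CPM in SH2, and 15.8, 16.1 and 13.3 CPM in SH3. SH2 was above both other groups for SQLE (0.73 against SC, SE 0.21, adjusted p = 0.0109), and NSDHL did likewise (0.52, SE 0.16, adjusted p = 0.0164). DHCR7 had 88.6, 160 and 113 CPM in SC, 78.5, 94.9 and 95.2 CPM in SH2, and 52.1, 55.8 and 64.5 CPM in SH3, so SH3 alone was clear of SC (-1.05, SE 0.19, adjusted p = 0.000681, against -0.41, SE 0.19, adjusted p = 0.0833, in SH2). SC5D, TM7SF2 and, in SH2, EBP stood between -0.57 and -0.11 with no call. With the replicate number as a block, the SH2 values of DHCR7 (-0.40, adjusted p = 0.0371) and TM7SF2 (-0.58, adjusted p = 0.0491) passed. Leaving out SC replicate 1 made the SH2 changes of DHCR7 (-0.59), TM7SF2 (-0.73) and EBP (-0.69) and the SH3 change of SC5D (-0.72) pass, and without SH3 replicate 1 SC5D also passed (-0.71). With the footprint libraries thinned to the smallest total, the SH2 change of EBP passed (-0.87, adjusted p = 0.0159).

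Several of those footprint calls did not hold with 1 library left out, which also leaves fewer libraries in the fit. In SH2, LSS (-0.57) was lost without SC replicate 3 (-0.42), SH2 replicate 1 (-0.49) or SH2 replicate 2 (-0.45). CYP51A1 (-0.47) was lost without SC replicate 2 (-0.33), SH2 replicate 2 (-0.48) or SH2 replicate 3 (-0.38), and NSDHL without SC replicate 1 (0.40), SC replicate 3 (0.46) or SH2 replicate 2 (0.46). In SH3, LSS (-0.55) was lost without SC replicate 3 (-0.40) or any 1 of the SH3 replicates (-0.61 to -0.44), and EBP (-0.99) without SH3 replicate 2 (-0.74).

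The genes that control the route did not move as 1 group. SREBF2, which encodes the SREBP that mainly serves cholesterol synthesis, fell in both hairpins. Its RNA was 220, 167 and 206 CPM in SC, 106, 116 and 123 CPM in SH2, and 90.8, 77.2 and 89.0 CPM in SH3, with no overlap between any groups and SH3 lowest. The log2 changes were -0.78 (SE 0.11, adjusted p = 4.45e-05) and -1.20 (SE 0.11, adjusted p = 2.40e-06). SREBF1, which encodes the SREBP that mainly serves fatty acid synthesis, had 73.1, 92.8 and 88.0 CPM in SC, 105, 116 and 127 CPM in SH2, and 67.0, 76.9 and 73.9 CPM in SH3. It rose in SH2 (0.46, SE 0.11, adjusted p = 0.00244) and stood at -0.22 (SE 0.11, adjusted p = 0.108) in SH3, where SC replicate 1 lay among the SH3 values and without it the change passed at -0.33 (adjusted p = 0.0188). SCAP, the escort of both precursors, gained 0.28 in SH2 (SE 0.09, adjusted p = 0.0179), lost without SC replicate 2 (0.24) or SH2 replicate 3 (0.17), and stood at 0.06 in SH3.

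The 2 INSIG genes, whose products hold SCAP in the endoplasmic reticulum, changed in opposite order between the hairpins. INSIG1, itself a classic SREBP target, had 44.4, 43.6 and 35.1 CPM of RNA in SC, 57.1, 45.6 and 53.4 CPM in SH2, and 10.8, 12.3 and 9.16 CPM in SH3. SH3 fell to 26.3% of the SC mean (log2 change -1.93, SE 0.14, adjusted p = 2.85e-07), and SH2 was slightly above SC (0.34, SE 0.13, adjusted p = 0.0330). The SH2 rise was lost without SC replicate 3 (0.24), SH2 replicate 1 (0.27) or SH2 replicate 3 (0.30). INSIG2 had 22.1, 27.6 and 22.3 CPM in SC, 7.53, 8.01 and 5.37 CPM in SH2, and 16.1, 14.2 and 13.5 CPM in SH3. Here SH2 was the lower hairpin, with changes of -1.78 (SE 0.16, adjusted p = 6.21e-07) against -0.71 (SE 0.15, adjusted p = 0.00132). STARD4, a cytosolic sterol carrier, had 21.3, 25.2 and 24.3 CPM in SC, 18, 15.1 and 12.3 CPM in SH2, and 9.96, 9.15 and 7.97 CPM in SH3. It fell in both, by 0.64 and 1.39 on the log2 scale.

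In footprints too, INSIG1 was low in SH3 and INSIG2 lowest in SH2. INSIG1 footprints were 17.2, 28.6 and 16.5 CPM in SC, 21.8, 28.4 and 23.6 CPM in SH2, and 3.51, 1.71 and 3.86 CPM in SH3, where the libraries held only 5 to 11 counts of the gene. The SH3 change was -2.75 (SE 0.34, adjusted p = 2.67e-05), and the SH2 value was 0.31 (SE 0.24, adjusted p = 0.307), which passed without SC replicate 2 (0.56, adjusted p = 0.0483). INSIG2 footprints were 34.9, 35 and 42.6 CPM in SC, 10.7, 9.32 and 12.3 CPM in SH2, and 25.2, 23.6 and 17.2 CPM in SH3, again with SH2 lowest and no overlap. Footprint changes in SH2 and SH3 were -1.81 and -0.79 for INSIG2, -0.77 and -1.05 for SREBF2, and -0.68 and -1.53 for STARD4, all called. The SH2 call of STARD4 was lost without SC replicate 3 (-0.56) or SH2 replicate 3 (-0.58). SREBF1 gained 0.60 in SH2 (adjusted p = 0.00544) and stood at 0.20 in SH3, and SCAP stood at 0.22 and 0.04.

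**Figure D2:**
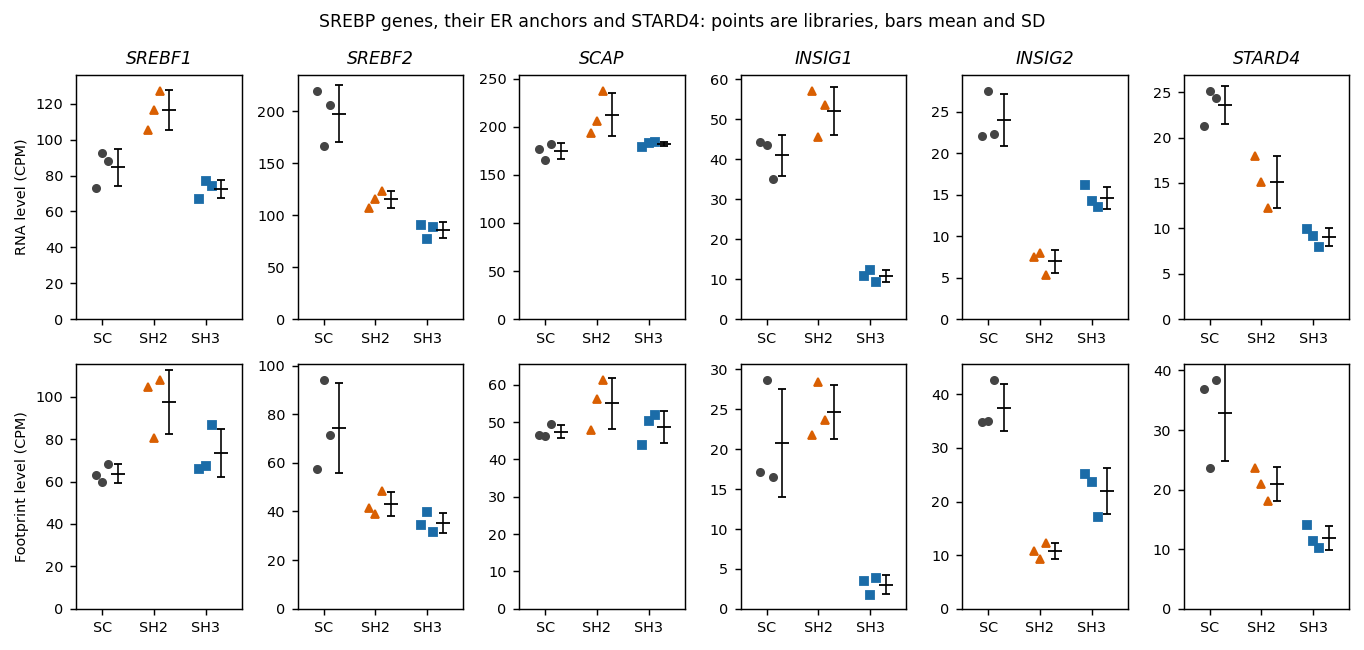
RNA (top) and footprint (bottom) level in CPM of the SREBP genes, SCAP, the INSIG genes and STARD4 in each library; bars give the mean and SD of 3 libraries. INSIG1 is low in SH3, at 9.16 to 12.3 CPM of RNA, while INSIG2 is lowest in SH2, at 5.37 to 8.01 CPM.

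Among the 9 fatty acid genes, 6 fell and 2 rose in SH2 RNA, where 30.4% of all genes tested fell and 31.1% rose. In SH3 RNA, 6 fell and none rose, against 25.2% and 27.8% of all genes tested. ACACA, ELOVL6, SCD, FADS1 and FADS2 fell in each comparison, ACSS2 fell in SH2, AACS fell in SH3, and FASN passed in neither. SCD, the desaturase that makes oleate, had RNA of 201, 203 and 191 CPM in SC, 57.3, 102 and 81.0 CPM in SH2, and 61.6, 61.1 and 72.6 CPM in SH3. Both hairpins were far below SC and overlapped each other, with changes of -1.30 (SE 0.16, adjusted p = 9.24e-06) and -1.61 (SE 0.16, adjusted p = 3.36e-06). FADS2, the first desaturase of polyunsaturated fatty acids, had 131, 134 and 138 CPM in SC, 56.7, 76.8 and 73.8 CPM in SH2, and 50.0, 42.2 and 44.3 CPM in SH3 (changes -0.96 and -1.56, SE 0.12 each). FADS1, which acts after it, changed by -0.73 and -0.89. ELOVL6, which lengthens palmitate, had 35.4, 37.9 and 33.4 CPM in SC, 26.5, 32.8 and 28.9 CPM in SH2, and 14.2, 12.5 and 12.5 CPM in SH3. It lost most of its RNA in SH3 (-1.44, SE 0.12, adjusted p = 6.10e-07) and fell slightly in SH2 (-0.27, SE 0.11, adjusted p = 0.0458). The SH2 call of ELOVL6 was lost in 8 of 12 alternatives, among them without SC replicate 1 (-0.30), 2 (-0.23) or 3 (-0.32) and without SH2 replicate 1 (-0.20) or 3 (-0.29). ACACA, acetyl-CoA carboxylase, had 147, 145 and 142 CPM in SC, 73.7, 89.0 and 88.0 CPM in SH2, and 113, 92.2 and 110 CPM in SH3 (changes -0.79 and -0.46).

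ACLY and AACS, which supply activated carbon, rose in SH2. ACLY, ATP citrate lyase, had RNA of 415, 385 and 400 CPM in SC, 549, 518 and 599 CPM in SH2, and 429, 400 and 424 CPM in SH3, so it rose in SH2 (0.47, SE 0.09, adjusted p = 0.000388) and stood at 0.06 in SH3 (adjusted p = 0.585). AACS, which activates acetoacetate, had 25.6, 22 and 24.4 CPM in SC, 36.1, 30.8 and 37.9 CPM in SH2, and 19.9, 16.6 and 18.3 CPM in SH3. All SH2 values of AACS were above SC and all SH3 values below it, with changes of 0.54 (SE 0.12, adjusted p = 0.00109) and -0.39 (SE 0.12, adjusted p = 0.0122). ACSS2, which activates acetate, had 43.5, 46.4 and 44.5 CPM in SC, 31.2, 38.1 and 33.7 CPM in SH2, and 43.5, 42.5 and 45.4 CPM in SH3 (changes -0.38, adjusted p = 0.00392, and -0.03, adjusted p = 0.802). FASN, fatty acid synthase, had log2 values of -0.22 and -0.19 with a wide spread, 470 to 735 CPM in SH2 against 612 to 781 CPM in SC, and the SH2 value passed without SH2 replicate 3 (-0.40, adjusted p = 0.0267).

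Footprints of SCD, FADS1 and FADS2 fell in both hairpins, those of ELOVL6 and FASN in SH3, and those of ACLY and AACS rose in SH2. ELOVL6 footprints were 58.0, 73.7 and 69.9 CPM in SC, 68.9, 72.5 and 82.6 CPM in SH2, and 18.7, 15.1 and 14 CPM in SH3. SH2 overlapped SC (0.16, SE 0.15, adjusted p = 0.419), and SH3 was clear of both (-2.09, SE 0.18, adjusted p = 1.38e-06). SCD footprints were 426, 569 and 471 CPM in SC, 298, 207 and 256 CPM in SH2, and 129, 122 and 139 CPM in SH3, in 3 separate ranges. FADS2 footprints formed 3 ranges too, at 247, 322 and 282 CPM in SC, 184, 167 and 219 CPM in SH2, and 86.6, 71.2 and 86.9 CPM in SH3. The changes were -0.94 and -1.91 for SCD, -0.58 and -1.80 for FADS2, and -0.87 and -1.35 for FADS1. ACLY gained 0.58 and AACS 0.70 in SH2, and ACACA and ACSS2 stood between -0.24 and -0.16 with no call in either hairpin. The SH3 call of FASN (-0.63, adjusted p = 0.0286) was lost without SC replicate 2 (-0.58), SC replicate 3 (-0.48), SH3 replicate 1 (-0.46) or SH3 replicate 2 (-0.57), and with plain library totals (-0.55). The SH2 value of FASN (-0.41) passed without SC replicate 1 (-0.57) or SH2 replicate 3 (-0.60) and with the replicate block (-0.41, adjusted p = 0.0212).

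**Figure D3:**
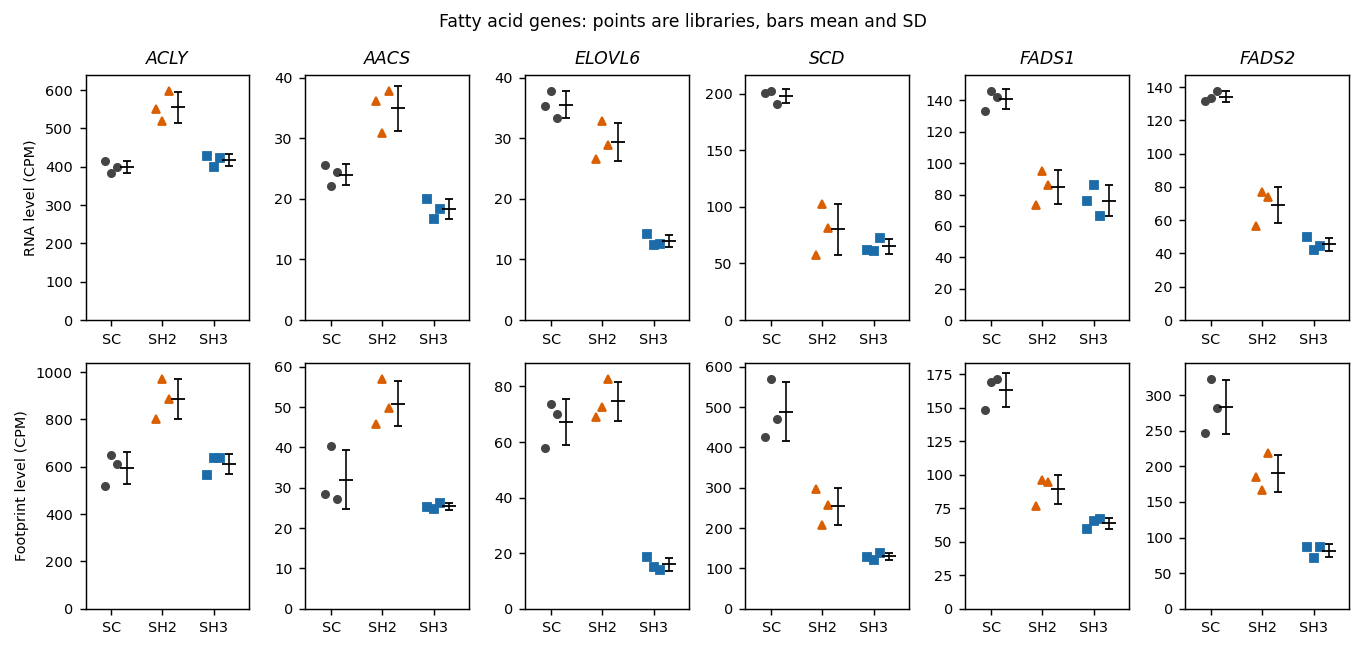
RNA (top) and footprint (bottom) level in CPM of 6 fatty acid genes in each library; bars give the mean and SD of 3 libraries. ELOVL6 footprints lie at 68.9 to 82.6 CPM in SH2 and at 14 to 18.7 CPM in SH3, and SCD and FADS2 footprints step down from SC to SH2 to SH3.

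The 2 LXR targets among the 35 genes, ABCA1 and MYLIP, rose in RNA and footprints of both hairpins. The further LXR genes described below did not all rise. ABCA1, which exports cholesterol to apolipoproteins, had RNA of 52.0, 63.6 and 52.6 CPM in SC, 106, 119 and 118 CPM in SH2, and 107, 77.9 and 104 CPM in SH3. Its RNA changes were 1.02 (SE 0.13, adjusted p = 1.05e-05) and 0.78 (SE 0.13, adjusted p = 0.000169), and all hairpin libraries were above SC. ABCA1 footprints were 37.5, 51.4 and 40.7 CPM in SC, 114, 182 and 117 CPM in SH2, and 103, 84.6 and 97.8 CPM in SH3 (changes 1.70 and 1.15, SE 0.19 each). MYLIP, a ubiquitin ligase that sends lipoprotein receptors to degradation, changed by 1.01 and 1.19 in RNA (SE 0.11 each) and by 1.22 and 1.60 in footprints (SE 0.17 each). For MYLIP every hairpin library, RNA and footprint, was above every SC library.

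The 2 hairpins were compared with each other directly, in the same fits as above. SC values were not part of the difference, but the SC libraries entered the filter, the scaling and the estimate of spread. In RNA, 9 of the 35 genes were higher in SH2 (25.7%, against a background of 18.9%) and 5 lower (14.3%, against 20.4%), with a median log2 difference of 0.14 beside 0.0047 over all genes. In footprints, 15 were higher in SH2 (42.9%, against 12.1%) and 2 lower (5.71%, against 11.6%), with a median of 0.41 beside 0.0038. Of the genes higher in SH2, INSIG1 differed most, by 2.27 in RNA (SE 0.14, adjusted p = 1.01e-07) and 3.06 in footprints (SE 0.34, adjusted p = 1.52e-05). ELOVL6 followed with 1.17 (SE 0.12, adjusted p = 5.37e-06) and 2.25 (SE 0.18, adjusted p = 1.22e-06), and HMGCS1 with 1.00 (SE 0.11, adjusted p = 1.63e-05) and 1.70 (SE 0.17, adjusted p = 8.55e-06). FADS2 (0.60 and 1.22), AACS (0.93 and 1.01), STARD4 (0.74 and 0.84) and ACLY (0.41 and 0.53) were also higher in SH2 in both readouts. SREBF1 (0.68) and SREBF2 (0.43) were higher in RNA alone by the test, and their footprint values were 0.40 (adjusted p = 0.0799) and 0.28 (adjusted p = 0.325). INSIG2 (-1.07 and -1.02) and ACAT2 (-0.57 and -0.69) were lower in SH2 in both readouts. ACSS2 (-0.35), ACACA (-0.33) and SC5D (-0.47) were lower in SH2 in RNA only by the test, with footprint values of -0.02, -0.06 and 0.41.

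A further 8 genes passed between the hairpins in footprints without passing in RNA. These were MSMO1 (0.99, SE 0.23, adjusted p = 0.00489, against 0.08 in RNA), SCD (0.96, SE 0.16, adjusted p = 0.000479, against 0.30), SQLE (0.85 against 0.27), MVK (0.66 against 0.26), DHCR7 (0.64 against -0.01), ABCA1 (0.54 against 0.25), NSDHL (0.53 against 0.14) and FADS1 (0.48 against 0.16). A pass in 1 readout does not show that the readouts differ, and the tests of the ratio are given below. All 8 were higher in SH2. In RNA, MVK passed without SH2 replicate 2 (0.37) and with DESeq2 (0.27), SCD without SH2 replicate 1 (0.49) and SQLE without SH2 replicate 3 (0.43). Many of the smaller calls were lost with 1 library left out. Among footprints, those of FADS1 (0.42 to 0.51 without SH2 replicate 2 or 3 or any 1 SH3 replicate), NSDHL (0.47 to 0.55 without SH2 replicate 2 or 3 or SH3 replicate 2 or 3), DHCR7 (0.57 to 0.61 without SH2 replicate 2 or 3 or SH3 replicate 1 or 2) and ABCA1 (0.29 without SH2 replicate 2, 0.46 to 0.59 without any 1 SH3 replicate) were lost. So were those of MVK (0.52 to 0.64 without SH2 replicate 2 or 3 or SH3 replicate 2), STARD4 (0.74 to 0.82 without SH2 replicate 1 or SH3 replicate 2 or 3) and SQLE (0.76 without SH3 replicate 3). In RNA, SC5D was lost without SH2 replicate 1 or 3 or SH3 replicate 1 or 3 (-0.49 to -0.31), ACACA without SH2 replicate 1 or SH3 replicate 1 or 3 (-0.28 to -0.25), and ACSS2 without SH2 replicate 1 or SH3 replicate 3 (-0.31 to -0.29).

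**Figure D4:**
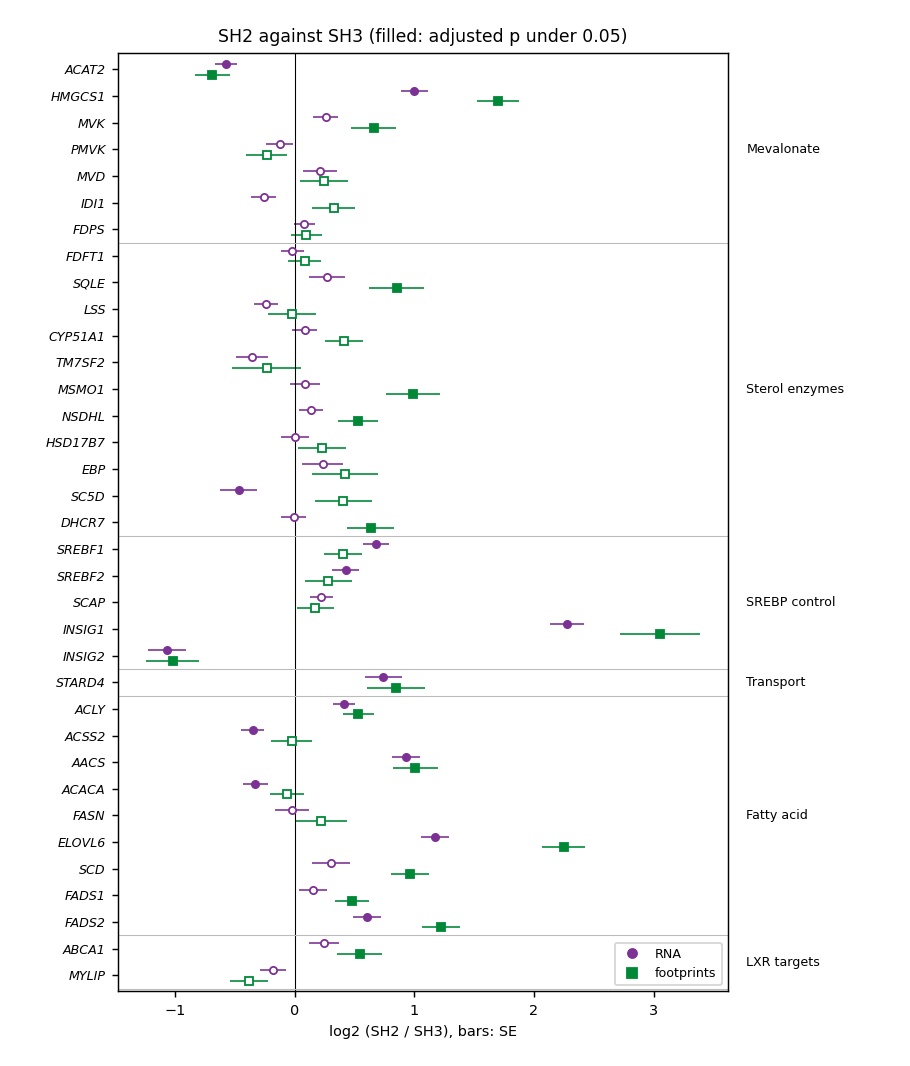
Log2 difference between SH2 and SH3 for each gene in RNA (circles) and footprints (squares), with the SE as bars; filled points have an adjusted p under 0.05. Points right of 0 are higher in SH2, and 15 of the 17 filled squares lie there, led by INSIG1, ELOVL6 and HMGCS1.

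The ratio of footprints to RNA, a measure of ribosome occupancy per transcript, was called for 0 of the 35 genes in all 3 comparisons by edgeR. The background was 3.90% of 12531 genes in SH2 against SC, 0.686% in SH3 against SC and 0.0160% between the hairpins. At an unadjusted p under 0.05 in edgeR the counts were 7, 5 and 9 genes, beside 2248, 1574 and 1471 of all 12531. The DESeq2 Wald test called 1, 0 and 1 of the 35, beside 910, 355 and 229 of all 12531. The median log2 change of the ratio was 0.13 in SH2 (all genes -0.019), -0.15 in SH3 (all genes -0.044) and 0.22 between SH2 and SH3 (all genes 0.013). Between the hairpins, 28 of the 35 values were above 0 (80.0%), beside 51.2% of all genes, among them all 11 enzymes from farnesyl diphosphate to cholesterol and all 9 fatty acid genes. In the mevalonate route 4 of 7 were above 0, and 2 of the 5 control genes. The skew was not particular to these 35 genes. Of the 41 further genes described below, 32 (78.0%) were above 0, with a median of 0.25. Among the 35, ELOVL6 had the largest value, with a mean footprint CPM per mean RNA CPM of 1.89 in SC, 2.54 in SH2 and 1.22 in SH3. Its log2 difference between SH2 and SH3 was 1.06 (SE 0.20, adjusted p = 0.0752), and the adjusted p ranged from 0.00106 with DESeq2 to 0.412 over the alternatives. DESeq2 made the call, as did edgeR with no filter (adjusted p = 0.0242) and with only the treatments compared (adjusted p = 0.0432). MSMO1 (0.89, SE 0.27, adjusted p = 0.177), SC5D (0.86, SE 0.30, adjusted p = 0.239), INSIG1 (0.78, SE 0.39, adjusted p = 0.453) and HMGCS1 (0.68, SE 0.20, adjusted p = 0.163) came next. In SH2 against SC, ACACA stood at 0.55 (SE 0.17, adjusted p = 0.0670), called by DESeq2 (adjusted p = 0.0204). Without SC replicate 2, SQLE (0.95), NSDHL (0.70) and SC5D (1.10) passed in that comparison, and without SC replicate 1, MSMO1 passed in SH3 against SC (-0.85). Leaving out a replicate removed both its RNA and its footprint library. Summed over the 35 genes, SC replicate 2 had the highest footprint level and the lowest RNA level (3347 CPM) of SC. SC replicate 1 had the lowest footprint level and the highest RNA level (3667.5 CPM). Each ratio is on the scale of its own 2 kinds of library and can be compared between treatments, not read as a number of ribosomes.

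**Figure D5:**
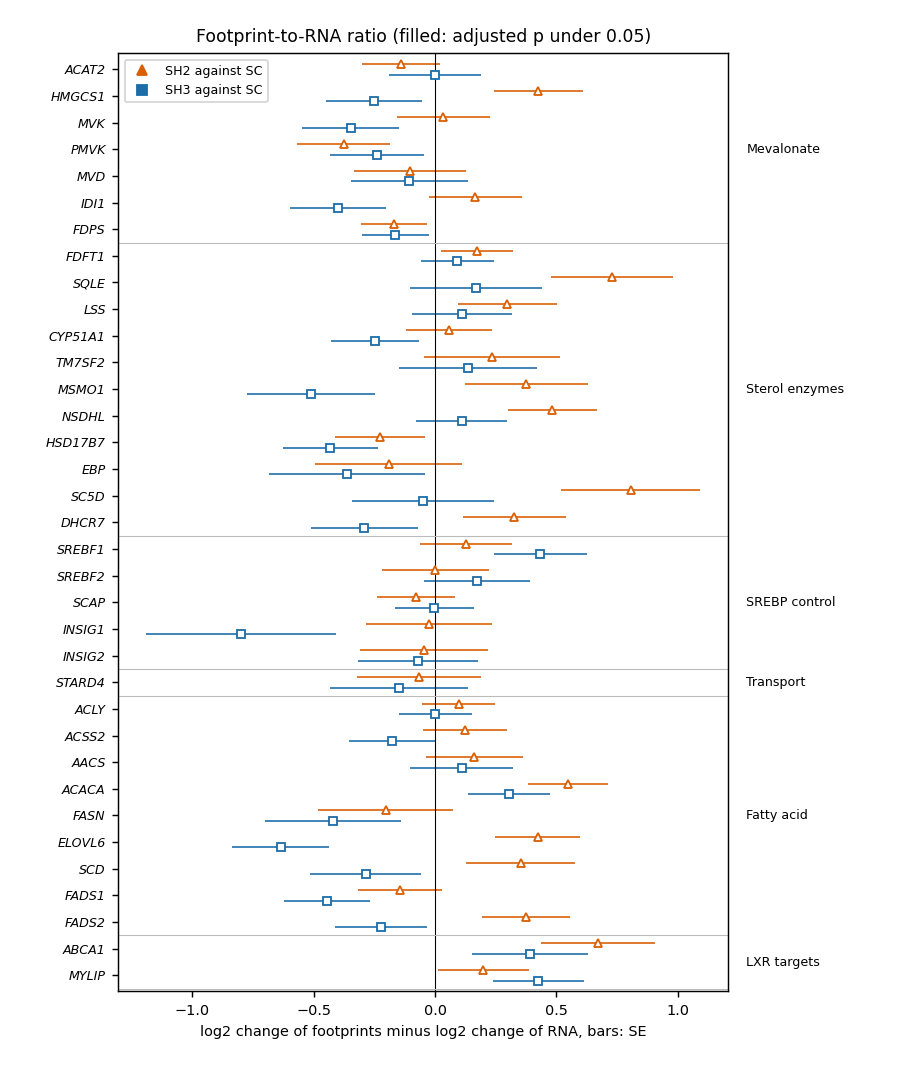
Log2 change of the footprint-to-RNA ratio for each gene in SH2 (triangles) and SH3 (squares) against SC, with the SE as bars. All points are open because none had an adjusted p under 0.05, and for ELOVL6, MSMO1, SC5D and HMGCS1 the SH2 point lies to the right of the SH3 point.

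A list of 41 further genes of sterol, fatty acid and LXR biology was read for comparison. Of these, 18 fell and 9 rose in SH2 RNA (43.9% and 22%, against 30.4% and 31.1% of all genes tested), and 20 fell and 7 rose in SH3 RNA (48.8% and 17.1%, against 25.2% and 27.8%). Of the 39 with enough footprint counts, 11 fell and 4 rose in SH2 (28.2% and 10.3%, against 23.2% and 21.0%), and 21 fell and 2 rose in SH3 (53.8% and 5.13%, against 19.0% and 16.9%). RNF145, a ubiquitin ligase of the sterol-sensing machinery, changed by -1.70 and -1.80 in RNA (SE 0.14 each). LBR, a nuclear envelope protein with sterol reductase activity, changed by -2.0 and -0.82. In the fatty acid group, FADS3 changed by -1.02 and -0.98, ELOVL7 by -2.23 and -1.23, ELOVL5 by -0.67 and -0.54, and the mitochondrial citrate carrier SLC25A1 by -0.64 and -0.74. SOAT1, which esterifies cholesterol, changed by -0.75 and -0.68. The 6 further LXR genes were the receptor genes NR1H2, NR1H3, RXRA and RXRB, and ABCG1 and LPCAT3, so their counts are not counts of targets. ABCG1 had only 8 to 91 RNA counts per library. Of the 6 genes, 4 rose and 2 fell in SH2 RNA, and 4 rose and none fell in SH3 RNA, where 31.1% and 27.8% of all genes tested rose. LPCAT3 was among the 2 that fell in SH2, and all its SH3 libraries lay above SC in RNA. In footprints, 2 of them rose and 1 fell in SH2, 2 rose in SH3, and 1 was not tested. The ratio was called in SH2 against SC for 2 of the 41 (4.88%, against 3.90% of all genes, so near the background), HACD2 (1.09, SE 0.24, adjusted p = 0.0141) and GGPS1 (0.77, SE 0.20, adjusted p = 0.0314), both higher in SH2 than in SC and both named after their values were seen.

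Reads of some of these genes may be shared with other loci. Named pseudogenes are listed by RefSeq for 6 of the 35 (IDI1, FDPS, CYP51A1, HSD17B7, AACS and SCD), and 8 overlap another gene of the deposited table (ACAT2, MVK, IDI1, SREBF1, ACACA, FADS1, FADS2 and ABCA1). The strand used in counting and the handling of reads that match several places are not given in the sources used here, so the values of these genes are uncertain to that extent.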

How the data were processed

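Bulk RNA (IN) and ribosome footprint (RPF) libraries of MDA-MB-231 cells were analysed from a single table of gene-level values, in 6 groups of 3 replicates taken from the labels. The raw read counts per gene and library were used as deposited by the authors. The table also holds normalized signal values, which per the file headers are DESeq2-normalized counts, and the authors' own log2 fold changes and p-values from DESeq2, of which the adjusted p-values were used to count the authors' calls. In the deposited table the columns of a further measure named RD were identical between SH2 and SH3 for all 3 kinds of value, so they were not used. Per the submitters' processing notes, Bowtie 1.2.2 and DESeq2 were used. The genome build, counting tool, strand setting and annotation are not given in the sources used here.

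Counts were tested with edgeR 4.0.16 in R 4.3.3 (filterByExpr, TMM factors, quasi-likelihood test, two-sided, Benjamini-Hochberg adjustment over all genes tested, threshold 0.05). RNA was fitted over the 9 IN libraries and footprints over the 9 RPF libraries. The ratio was the footprint change minus the RNA change in 1 fit of all 18 libraries. The SE was derived from the test's F statistic, as the absolute log2 change over the root of F. The code was tested on simulated data. Deviations from the group means of same-numbered SC and SH2 libraries correlated in every pair, at 0.372 to 0.422 in RNA and 0.309 to 0.359 in footprints. This pairing comes from the data, not the labels, and values with the replicate number as a block are given beside SH2 results whose call they change. Pairs with SH3 did not all correlate. Alternatives were the DESeq2 1.42.0 Wald test, DESeq2 size factors, plain library totals, no filter, a replicate block, only the treatments compared, and leaving out each replicate. Thinning the footprint libraries to the smallest total was added after seeing the data.

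All 35 members were accounted for. Values in every library were to be given for those called in RNA in both hairpins, or between the hairpins, limited to the 20 with the lowest adjusted p between the hairpins in RNA. MSMO1, SQLE and DHCR7 were added to these after their values were seen. Of the 41 further genes, those named were called in RNA of both hairpins with an absolute log2 change of at least 0.5, at most 8. The values of 1 of these are not reported here. Members and lists were chosen with earlier results of these data known, so their counts are descriptions.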

Additional observations from a re-analysis of the deposited data

Results flagged for a closer look

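For some genes all SH2 libraries lay on 1 side of SC and all SH3 libraries on the other, and the 2 hairpins differed by edgeR's quasi-likelihood test. INSIG1 RNA did so, with a log2 difference of 2.27 between SH2 and SH3 (adjusted p = 1.01e-07). AACS did so in both readouts, with a difference of 0.93 in RNA (adjusted p = 3.99e-05) and 1.01 in footprints (adjusted p = 0.00125).

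Among the 41 further genes, named here after their values were seen, ACSL3, which activates long-chain fatty acids, was higher than SC in SH2 and lower in SH3. Its RNA was 104, 105 and 98.0 CPM in SC, 129, 150 and 119 CPM in SH2, and 60.6, 61.5 and 65.7 CPM in SH3. The difference between the hairpins was 1.08 in RNA (adjusted p = 2.85e-06) and 1.40 in footprints (adjusted p = 9.42e-06). SPRING1, a partner of the SREBP-cleaving protease, differed by 0.60 in RNA (adjusted p = 0.000275), and LPIN1, a phosphatidate phosphatase, by 0.71 (adjusted p = 0.000175), both higher in SH2. GGPS1, geranylgeranyl diphosphate synthase, differed by -0.61 (adjusted p = 0.00254) and LPCAT3, a phospholipid acyltransferase, by -0.66 (adjusted p = 0.000784), both lower in SH2.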

How the results depend on the processing

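The alternatives gave 3990 values for the 35 genes, of which 3858 stayed called or not called as before, 86 lost a call and 46 gained one. No called value changed sign, and 143 values that were not called did. Calls held in all alternatives run for 25 of 28 genes in SH2 RNA, 23 of 26 in SH3 RNA and 11 of 14 between the hairpins, and in footprints for 17 of 23, 19 of 22 and 10 of 17. With 1 replicate left out, the count lower in SH2 than in SH3 in RNA (5) ranged from 2 to 6, with 2 without SH2 replicate 1 and 3 without SH3 replicate 1 or 3. The count higher in SH2 than in SH3 in footprints (15) ranged from 9, without SH3 replicate 2, to 14. For the ratio, the count higher in SH2 than in SC (0) ranged from 0 to 3 and was 1 (ACACA) with the DESeq2 Wald test, the count lower in SH3 than in SC (0) ranged from 0 to 1, and the count higher in SH2 than in SH3 (0) was 1 (ELOVL6) with DESeq2, with no filter and with only the treatments compared. Where replicates were left out, fewer libraries entered the fit, and otherwise the cause was not tested. Plain library totals moved the median RNA change of all genes to 0.105 in SH2 and 0.121 in SH3, and lowered the share of higher among ratio calls of all genes in SH2 from 37.0% to 21.3%. They also lost the RNA calls of ELOVL6 in SH2 (-0.18) and SC5D in SH3 (-0.36). In footprints they lost LSS (-0.48) and FASN (-0.55) in SH3, and ABCA1 between the hairpins (0.47). Over all genes the ratio calls also depended on the tool, with 489, 86 and 2 by edgeR and 910, 355 and 229 by DESeq2. The ratio also rests on footprint totals as low as 1662705 counts.

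Replicate numbers paired SC with SH2 by the deviations from the group means, but not either of them with SH3, where same-numbered libraries correlated between -0.188 and 0.486 in RNA and between -0.142 and 0.410 in footprints. Nor did numbers 1 and 2 pair RNA with footprints in SC and SH2. There RNA replicate 1 went with footprint replicate 2 (0.620 and 0.598) and RNA replicate 2 with footprint replicate 1 (0.480 and 0.541), while the same numbers 1 and 2 correlated between -0.513 and -0.320. The same number 3 correlated at 0.284 in SC and 0.552 in SH2, and same-numbered RNA and footprint libraries of SH3 at 0.220 to 0.475. With the number as a replicate block, 8 genes were higher and 21 lower in SH2 RNA, 3 and 24 in SH3 RNA, and 10 and 7 between the hairpins. In footprints the block gave 8 and 18, 2 and 20, and 17 and 2, and no called gene lost its call. Calls over all genes rose with the block too. In RNA they went from 7805, 6732 and 4993 to 8353, 7396 and 5780 of 12710. In footprints they went from 4576, 3719 and 2459 to 5018, 4269 and 3019 of 10345. Outside SH2 against SC, the block added SREBF1 in SH3 RNA (-0.22), MVK (0.26), IDI1 (-0.26) and TM7SF2 (-0.35) in RNA between the hairpins, and CYP51A1 (0.41) and SREBF1 (0.40) in footprints between them. The ratio gave 0 in each comparison with the lysate as a block, which assumes that same-numbered RNA and footprint libraries share a lysate, and the correlations above put that in doubt.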
